A study of Homo sapiens with 4 samples.

Results

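The amino acid transporter genes described here were all genes of the SLC1A, SLC3A, SLC7A, SLC36A, SLC38A and SLC43A families that had at least 1 probe with a single matching gene symbol in the platform annotation. They came to 40 genes on 55 probes, out of 18473 named genes on 27645 probes. The rule matched symbols only. The arrays were Illumina bead arrays of HEK293, an established human cell line derived from embryonic kidney. Every dish received 100 pmol of siRNA, either control siRNA or siRNA against human CDC73 (hCdc73), and 24 hours later the cells were replated for another 24 hours, either sparse on dishes of 100 mm or confluent on dishes of 35 mm. The protein made from CDC73, parafibromin, belongs to the PAF1 complex, which accompanies RNA polymerase II. The 4 groups were control siRNA in sparse cells, CDC73 siRNA in sparse cells, control siRNA in confluent cells and CDC73 siRNA in confluent cells, with 1 array in each, and lists of intensities follow this order. No difference below therefore has a replicate check or a p-value, and the differences describe these arrays.

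Cells take up amino acids through carriers with overlapping substrates. Heavy chains of the SLC3A family bring light chains of the SLC7A family to the membrane, and the pair of SLC3A2 (CD98) and SLC7A5 (LAT1) imports leucine and other large neutral amino acids in exchange for glutamine. Glutamine itself enters through sodium-coupled carriers such as SLC1A5, SLC38A1 and SLC38A2, and SLC38A9 reports lysosomal arginine to the growth kinase complex mTORC1.

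A probe counted as detected on an array when fewer than 1% of the probes for olfactory receptor genes, used as a negative panel, had at least its signal (a detection p under 0.01), which set the limit at an intensity between 103 and 123. By this measure 16 of the 40 genes were detected on all 4 arrays, 5 on some arrays and 19 on none. At least 1 array detected 52.5% of the transporter genes and 58.3% of all named genes. The 19 not detected were SLC1A2, SLC1A6, SLC1A7, SLC3A1, SLC7A3, SLC7A4, SLC7A10, SLC7A11, SLC7A13, SLC7A14, SLC36A2, SLC36A3, SLC38A3, SLC38A4, SLC38A5, SLC38A8, SLC38A11, SLC38A12 and SLC43A1. They include the cystine and glutamate exchanger SLC7A11 (intensities of 94.5 and 80.1 in sparse and 75.5 and 58.5 in confluent cells, control siRNA first) and the heavy chain SLC3A1 (64.7 to 83.1), and nothing is said of their direction. A gene was read from its brightest named probe. Of the 10 genes with more than 1 probe, 4 had a second probe that was detected on some array.

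Over whole arrays, total signal ran from 22948000 in confluent cells with CDC73 siRNA to 28273000 in confluent cells with control siRNA, and between 28.0% and 30.5% of probes were detected. No array detected the single CDC73 probe (72.3 to 98.3), which leaves the knockdown unchecked, and the siRNA groups rest on their labels. Of 9 markers listed for HEK293, VIM, KRT8, KRT18 and NEFL were detected on all 4 arrays, STMN2 on 1, and NEFM, NEFH, INA and PAX2 on none. Of 9 markers of other cell types, PTPRC, CD3E, ALB, CDH5, MYOD1 and GFAP were not detected, while PECAM1 was detected on 3 arrays and COL1A1 and COL3A1 on all 4. COL3A1 had intensities of 125, 184, 253 and 304 over the 4 arrays, with both confluent values above the sparse ones. COL1A1 was at 277, 210, 366 and 268, and PECAM1 at 133, 114, 156 and 101. The summed intensity of these 3 markers was 535 and 507 in sparse and 774 and 673 in confluent cells. That of the 5 detected HEK293 markers was 15378 and 11282 in sparse and 18792 and 9932 in confluent cells. The part of either set of markers in the differences below was not tested. In such bulk samples, fewer cells of a type and less RNA per cell cannot be told apart.

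With CDC73 siRNA most of the transporters were lower in confluent than in sparse cells, led by SLC7A5 and its heavy chain SLC3A2. With control siRNA SLC7A5 was far lower too, while the median of the transporters lay close to that of all genes. Differences are on the log2 scale after background correction and quantile normalization, and 2-fold (1 on the log2 scale) was the limit for a call. With CDC73 siRNA 17 of 21 measured transporters were lower in confluent cells, with a median of -0.42, while the median of all 10509 measured genes was -0.02. SLC1A1, SLC38A7, SLC43A2 and SLC43A3 counted as measured here through the sparse array alone, where they were higher. Over the 16 genes detected on all 4 arrays 13 were lower, with a median of -0.29 (-0.03 for all 9047 such genes). SLC7A5 and SLC3A2 were the 2 that passed 2-fold lower, against 3.9% of all measured genes, and no transporter passed 2-fold higher, against 4.33% (8.23% in either direction). With control siRNA 12 of 19 were lower, with a median of -0.05 (0.02 for all 10244 measured genes), and only SLC7A5 passed 2-fold lower (1.64% of all genes). SLC38A7 counted as measured here through the sparse array alone and SLC7A9 through the confluent array alone, each where it was higher. Over the 16 genes detected on all 4 arrays 11 were lower, with a median of -0.07 (-0.001 for all 9047 such genes). None of the 19 passed 2-fold higher with control siRNA (3.9%, with 5.54% in either direction). Leaving out SLC7A5 and SLC3A2, a step chosen after seeing the data, gave medians of -0.35 with CDC73 siRNA and -0.01 with control siRNA. Scaling the arrays to a common median instead of quantile normalization shifted the median of all genes to -0.25 and 0.22, and turned the control siRNA median of the transporters to 0.18. Relative to all genes it was then -0.04, and that with CDC73 siRNA was -0.45.

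CDC73 siRNA itself went with small differences of either sign in sparse cells. Of 21 measured transporters 12 were higher and 9 lower, with a median of 0.05 (0.04 for all 10182 measured genes). SLC1A1, SLC7A9 and SLC43A3 counted as measured here through the CDC73 siRNA array alone, where they were higher. Over the 16 genes detected on all 4 arrays 8 were higher and 8 lower, with a median of 0.01 (0.02 for all 9047 such genes). Among the 21 measured, only SLC1A1 passed 2-fold higher, as did 2.13% of all measured genes. None passed 2-fold lower (1.82%, with 3.95% in either direction). In confluent cells 11 of 18 were lower with CDC73 siRNA, with a median of -0.26 (0.00 for all 10497 measured genes). SLC43A2 counted as measured here through the control siRNA array alone, where it was higher. Over the 16 genes detected on all 4 arrays 10 were lower, with a median of -0.26 (-0.01 for all 9047 such genes). Among the 18 measured, SLC43A2 passed 2-fold lower (3.51% of all genes did), and none passed 2-fold higher (2.29%, with 5.79% in either direction). With median scaling the confluent median was -0.68, where that of all genes was -0.40. Both of these calls were on genes detected on 1 side only, and as bounds SLC1A1 was at least 1.03-fold higher and SLC43A2 at least 1.53-fold lower.

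**Figure D1:**
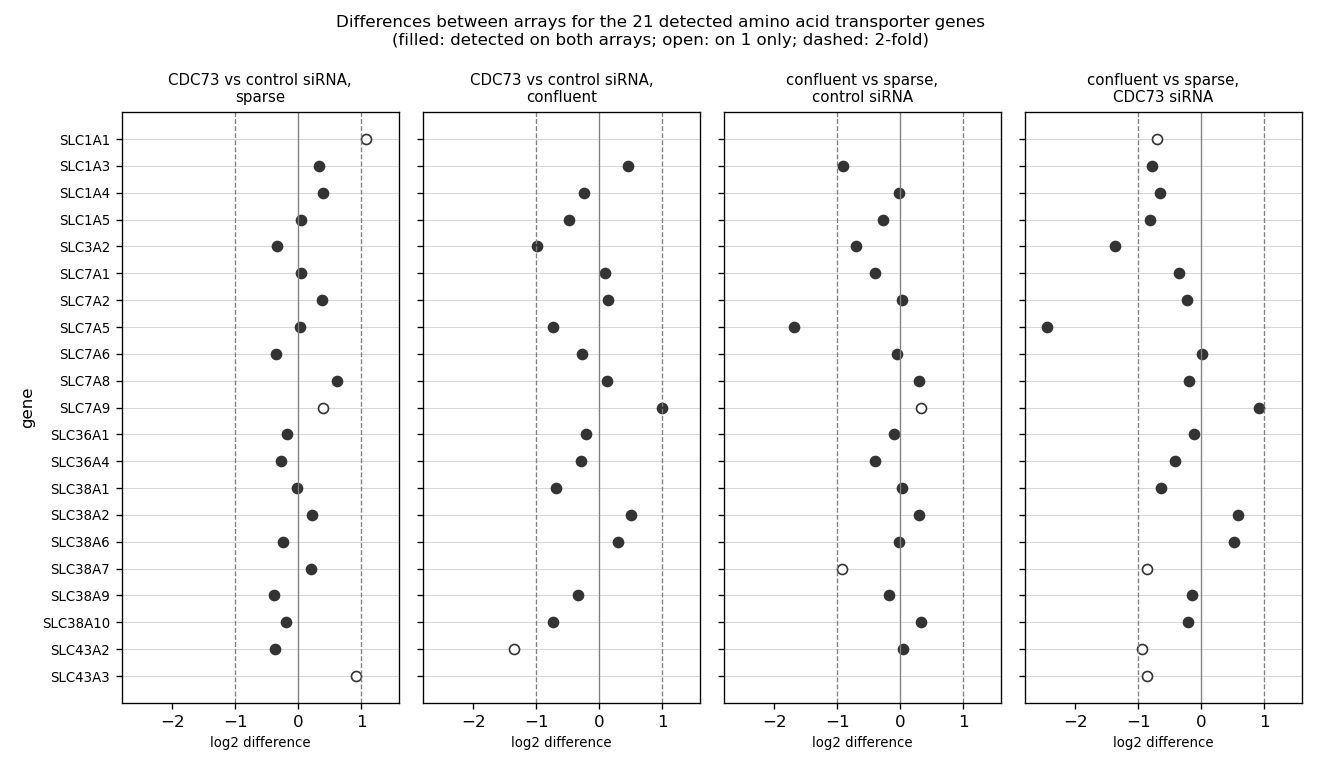
Log2 differences between arrays (horizontal axis) for the 21 amino acid transporter genes detected on at least 1 array (rows), in the 4 comparisons of arrays (panels). Filled points are genes detected on both arrays and open points on 1 only. SLC7A5 lies past 2-fold lower in both density panels, at -1.68 and -2.44, and SLC3A2 in the panel with CDC73 siRNA only, at -1.36.

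SLC7A5, the light chain that carries leucine, phenylalanine and other large neutral amino acids, had intensities of 10490 (control siRNA) and 10142 (CDC73 siRNA) when sparse and 3508 and 1578 when confluent. The sparse arrays were alike, and both confluent arrays were far below them, that with CDC73 siRNA lowest. Confluent cells were 3.2-fold lower than sparse cells with control siRNA (-1.68) and 5.43-fold lower with CDC73 siRNA (-2.44). Ordered from the most negative difference, SLC7A5 was number 10 of 10244 measured genes in the first comparison and number 2 of 10509 in the second. CDC73 siRNA went with a difference of 0.03 in sparse and -0.73 in confluent cells. The gap between these siRNA differences, -0.76, has no replicate behind it. The SD of a single probe, taken from the disagreement between the probes of 1641 genes with 2 detected probes, was 0.37 for such a gap, 0.29 and 0.32 for the density differences with control and CDC73 siRNA, and 0.25 and 0.32 for the siRNA differences in sparse and confluent cells. Both probes of a gene were read on the same arrays, so this SD holds no variation between dishes or hybridisations. In the authors' log2 table the array values were 13.41 and 13.47 in sparse and 11.70 and 10.98 in confluent cells, in the same order of siRNA, which gives density differences of -1.71 and -2.49.

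SLC7A5 has 1 probe of its own. Of 3 probes named for the pseudogene SLC7A5P2, 2 were not detected, and the third, at 44310 to 48454 on the 4 arrays, differed with density by 0.04 and -0.02. Whether the probes of the gene and the pseudogene share signal was not checked by sequence. The promoter of SLC7A5 is shown because it is the gene on which the density result rests most. The 250 bases before its RefSeq start (GRCh38.p14, chr16:87869508-87869757, minus strand) are printed along the gene, with the E-box CACGTG, the element bound by MYC and TFEB, in capitals. GC made up 79.6% of these bases, where the median over 35116 promoters was 58%.
SLC7A5: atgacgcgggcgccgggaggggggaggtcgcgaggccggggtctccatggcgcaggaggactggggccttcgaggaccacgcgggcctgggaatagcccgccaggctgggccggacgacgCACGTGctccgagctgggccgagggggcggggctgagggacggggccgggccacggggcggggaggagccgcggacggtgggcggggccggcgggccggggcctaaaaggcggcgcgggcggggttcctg

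SLC3A2, the heavy chain that brings SLC7A5 and several other light chains to the cell surface, followed the same order of arrays in intensity. In normalized values SLC3A2 was highest in sparse cells with control siRNA, and SLC7A5 in sparse cells with CDC73 siRNA. The intensities of SLC3A2 were 4207 with control and 3317 with CDC73 siRNA when sparse, and 2779 and 1026 when confluent. Each confluent array lay below both sparse ones, and that with CDC73 siRNA was far below the rest. Confluent cells were 1.62-fold lower with control siRNA (-0.70) and 2.57-fold lower with CDC73 siRNA (-1.36). CDC73 siRNA went with -0.33 in sparse and -0.99 in confluent cells, the latter just short of the 2-fold limit. A dimmer second probe, detected on the sparse arrays only, was at -1.05 with density under control siRNA and -0.15 under CDC73 siRNA, with intensities of 150 and 108 in sparse and 115 and 99.7 in confluent cells. The mean of both probes was at -0.76 in the latter comparison, which ends the 2-fold call. With CDC73 siRNA the second probe was at -0.88 in sparse cells and at 0.01 in confluent cells, where it was undetected.

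The other detected light chains differed less with density, or the other way. SLC7A6, which exchanges cationic for neutral amino acids, differed with density by -0.05 and 0.02, and its second probe by -0.83 and -0.47. Relative to all genes under median scaling the brighter probe was at 0.00 and 0.04. SLC7A8, a relative of SLC7A5 with a broader range of neutral substrates, was at 0.30 with control and -0.20 with CDC73 siRNA. SLC7A9, the cystine transporter that pairs with SLC3A1 in the kidney, was dim and read highest in confluent cells. Its intensities were 110 and 121 in sparse and 137 and 162 in confluent cells, and CDC73 siRNA in confluent cells went with a difference of 1.00, a rounded value just under the 2-fold limit. In the authors' log2 table that difference was 0.57.

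**Figure D2:**
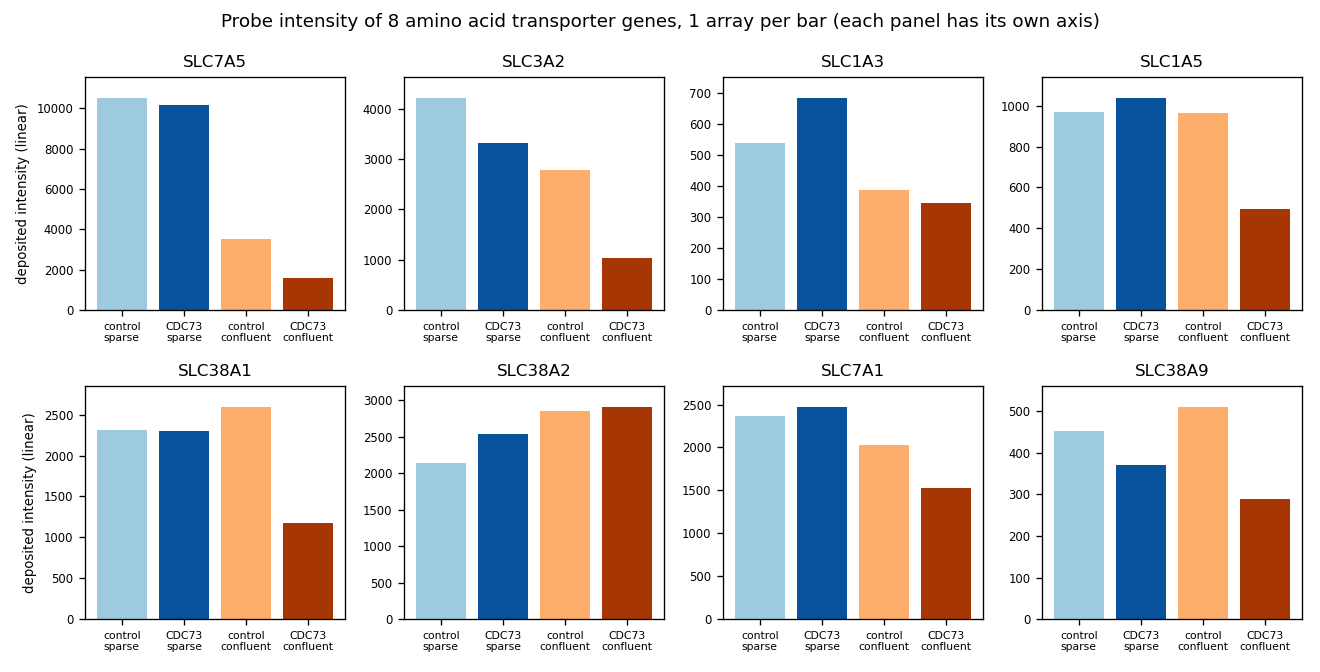
Deposited probe intensity (vertical axis, linear, starting at 0, with a separate range in each panel) of 8 transporter genes on the 4 arrays, 1 bar per array. SLC7A5 and SLC3A2 are lowest in confluent cells with CDC73 siRNA, at 1578 and 1026, while SLC38A2 is highest there, at 2904.

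The cationic carriers, which import arginine and lysine without a heavy chain, varied less. SLC7A1 had intensities of 2362 and 2468 in sparse and 2027 and 1522 in confluent cells, and differed with density by -0.40 and -0.35 and with siRNA by 0.05 and 0.10. SLC7A2, at 690, 913, 842 and 623, was higher with CDC73 siRNA by 0.39 in sparse and 0.14 in confluent cells. The confluent siRNA values were -0.28 for SLC7A1 and -0.32 for SLC7A2 with median scaling, which moved all genes to -0.40, and 0.12 and 0.08 relative to all genes there. Neither gene passed 2-fold in any of the 4 comparisons as reported.

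In the SLC1A family all measured genes were lower in confluent cells with CDC73 siRNA (4 of 4), and all 3 measured with control siRNA were lower too, except that SLC1A4 was at 0.31 with median scaling (0.09 relative to all genes). Of the 4, SLC1A1 counted as measured through the sparse array alone, so its direction says nothing here. The glutamate and aspartate transporter SLC1A3 had intensities of 539 and 681 in sparse and 386 and 346 in confluent cells. The sparse arrays were both above the confluent ones, with density differences of -0.90 and -0.78. With CDC73 siRNA SLC1A3 was higher by 0.33 in sparse and 0.45 in confluent cells, but the second value was -0.03 with median scaling, where the median of all genes lay at -0.40 and SLC1A3 at 0.37 relative to it. The glutamine exchanger SLC1A5 had intensities of 970, 1036 and 965 on the first 3 arrays and 493 in confluent cells with CDC73 siRNA. In intensity only that array stood below the rest, while the normalized log2 values were 9.83, 9.89, 9.56 and 9.08. The density differences were -0.28 with control and -0.81 with CDC73 siRNA. SLC1A4, an exchanger of serine, alanine and threonine, was also lowest on that array, at a lower signal (170, 209, 204 and 141). Its normalized values were 6.85, 7.25, 6.84 and 6.59, with density differences of -0.01 and -0.66. SLC1A1, a neuronal and epithelial glutamate transporter, was detected in sparse cells with CDC73 siRNA only, at 121, against 91.0, 116 and 94.4 on the other arrays.

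The SLC38A family split in direction. SLC38A1, a sodium-coupled glutamine carrier, had intensities of 2318, 2299 and 2589 and then 1169 in confluent cells with CDC73 siRNA, so that again 1 array lay below the other 3. Its siRNA difference was -0.02 in sparse and -0.68 in confluent cells. SLC38A2, a close relative that is made in response to amino acid shortage, ran the other way, with 2142 and 2537 in sparse and 2851 and 2904 in confluent cells. Its density differences were 0.30 and 0.58 and its siRNA differences 0.23 and 0.51, positive in both tables and with median scaling as well, where the last of these was 0.17. SLC38A10 was at 950, 854, 1380 and 597, with a siRNA difference of -0.73 in confluent cells. Its second probe was at -0.05 there, and with density under CDC73 siRNA it was at 0.53 where the brighter probe was at -0.21. SLC38A6 differed by -0.24 with siRNA in sparse and 0.30 in confluent cells, the latter at -0.16 with median scaling but at 0.24 relative to all genes.

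Of the lysosomal members, SLC38A9, the arginine sensor, had intensities of 454, 372, 509 and 288 and was lower with CDC73 siRNA by 0.38 in sparse and 0.34 in confluent cells. SLC38A7, an exporter of glutamine from lysosomes, was detected in sparse cells only (132 and 141, against 104 and 101 in confluent cells), with density differences of -0.93 and -0.85. The size is uncertain so near the limit, and the authors' log2 table gives -0.36 and -0.50. As bounds SLC38A7 was at least 1.46-fold lower in confluent cells with control siRNA and at least 1.72-fold lower with CDC73 siRNA. SLC36A1, which moves small neutral amino acids with protons, was at 295, 272, 346 and 224 and had the narrowest range of all 16 genes detected on every array, 0.29 on the log2 scale. SLC36A4, a carrier of proline and tryptophan, was lower in confluent cells by 0.40 and 0.42, and its second probe by 0.03 in both comparisons.

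In the SLC43A family SLC43A2, a carrier of branched-chain and aromatic amino acids that needs no exchange, was detected on 3 arrays at 132, 114 and 157 and was at 83.2 in confluent cells with CDC73 siRNA. SLC43A3, related by sequence but known to carry purine nucleobases, was detected in sparse cells with CDC73 siRNA only, at 127. Signals this close to the detection limit leave bounds of at most 1.53-fold for both genes.

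Across the 16 genes detected on every array, 9 had their lowest normalized value in confluent cells with CDC73 siRNA, or 56.3%, where 31.1% of all 9047 such genes did. The sparse array with CDC73 siRNA held the highest value for 7 of 16 (43.8%, against 26.0% of all genes). These shares are descriptions of single arrays. The difference of the siRNA differences, confluent minus sparse, had a median of -0.13 over the 16 genes (-0.04 for all), and ran from -0.76 for SLC7A5 to 0.53 for SLC38A6. Beside SLC7A5, it was -0.66 for SLC3A2, -0.66 for SLC38A1, -0.65 for SLC1A4, -0.54 for SLC38A10, -0.53 for SLC1A5 and -0.50 for SLC7A8. The second probes of SLC3A2 (siRNA differences of -0.88 in sparse and 0.01 in confluent cells) and SLC38A10 (-0.15 and -0.05) were not more negative in confluent cells. None of the 16 passed 2-fold in this measure, which 5.5% of all genes did. The median was -0.02 without SLC7A5 and SLC3A2 and also with the mean of each gene's probes. With median scaling, where all genes had a median of -0.47, it was -0.63, SLC1A4 (-1.13), SLC38A1 (-1.02) and SLC1A5 (-1.01) passed 2-fold, and SLC38A6 was at 0.02. Relative to all genes these were at -0.66, -0.55, -0.54 and 0.49, none of them past 2-fold. The share of all genes past 2-fold in this measure with median scaling is not given here.

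**Figure D3:**
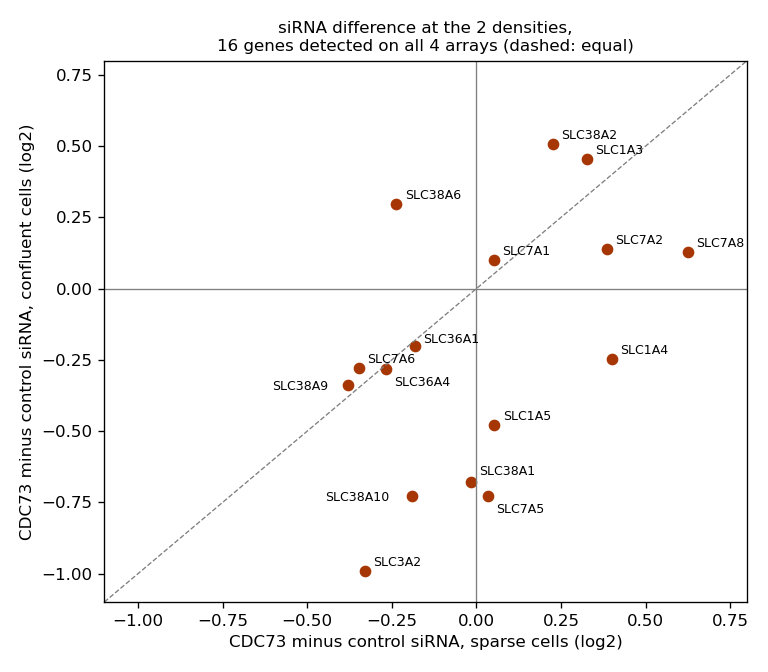
Log2 difference between CDC73 and control siRNA in sparse cells (horizontal axis) and confluent cells (vertical axis) for the 16 genes detected on all 4 arrays, 1 point per gene, with a dashed line where both are equal. SLC7A5, SLC38A1 and SLC1A5 lie near 0 in sparse cells and at -0.73, -0.68 and -0.48 in confluent cells, while SLC38A2 and SLC1A3 are above 0 at both densities (with median scaling SLC1A3 is at -0.03 in confluent cells, or 0.37 relative to all genes).

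Both deposited tables gave the same sign for the siRNA differences of every measured transporter (21 of 21 in sparse, 18 of 18 in confluent cells). For the density differences they gave it for 15 of 19 with control siRNA and 20 of 21 with CDC73 siRNA. The exceptions were SLC1A4, SLC7A2, SLC36A1 and SLC38A1 in the former and SLC7A6 in the latter, each close to 0. The widest gap between the tables was 0.74, for SLC1A1 in sparse cells. Among second probes, 13 of 15 differences in 4 genes had the sign of the brighter probe.

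Several of these promoters hold a letter match to an element known to bind ATF4, the transcription factor that cells make when amino acids run short. The RefSeq promoter table (GRCh38.p14, 250 bases before to 50 after each start) had 31 of the 40 genes, and the search covered both strands and every listed start. TGATGNAA, the core of the element joined by CEBP and ATF factors, was found for 6 of 31 genes (19.4%, against 4.46% of 27305 genes). All 6 were detected on all 4 arrays, where 19 of the 31 genes were detected on at least 1 array. Their sites are shown because they let the sequences of these 6 genes be set beside their values. They are printed along the gene, with the match in capitals, which reads as the reverse complement for SLC1A4 and SLC3A2.
SLC1A3 (chr5:36596360-36596383): gaaatgacTGATGCAAagcagggt
SLC1A4 (chr2:64989384-64989407): gctcccgtTTGCATCAtctccagc
SLC1A5 (chr19:46784896-46784919): gaagtggcTGATGCAAgctgtcca
SLC3A2 (chr11:62881728-62881748): aggactccTTACATCAgctcc
SLC7A1 (chr13:29595666-29595689): cgcactgcTGATGAAAcctggcgc
SLC38A1 (chr12:46266505-46266528): gacccgaaTGATGAAAagggatca

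The 6 genes with this match differed with density under control siRNA from -0.90 (SLC1A3) to 0.03 (SLC38A1), and under CDC73 siRNA from -1.36 (SLC3A2) to -0.35 (SLC7A1). The E-box CACGTG was found for 8 of 31 genes (25.8%, against 8.77% of all), of which SLC7A5, SLC1A5, SLC36A1, SLC7A8 and SLC38A7 were detected. GGAATG, the motif of the TEAD factors through which YAP and TAZ act, was found for 5 of 31 (16.1%, against 16.7%), with SLC1A3, SLC1A5, SLC38A6 and SLC43A2 among the detected genes. A match shows letters in a window and not binding.

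The ATF4 pathway, as a list of 20 genes beside the transporters, showed no common direction. With CDC73 siRNA in confluent cells 8 of 18 measured genes were higher and 10 lower (median -0.04). The stress factor DDIT3 (CHOP) was at 1.27, with intensities of 326 and 320 in sparse and 444 and 644 in confluent cells, and NUPR1, a small stress-induced chromatin protein, was detected on the CDC73 siRNA array only, at 177 against 112. The lipoprotein receptor VLDLR was at -1.22 and the secreted glycoprotein STC2 at -1.01. ATF4 itself, at 19563, 17454, 20076 and 15873, stayed within 0.11 in every comparison. In sparse cells with CDC73 siRNA the factor ATF5 was at -1.20, SESN2, a leucine sensor, was detected at 183 where the control array was undetected at 119, STC2 was at -0.70 and the pseudokinase TRIB3 at 0.61.

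With density, the serine synthesis enzyme PSAT1 of that list was lower by 0.84 with control and 0.87 with CDC73 siRNA, and the asparagine synthetase ASNS by 0.71 and 0.77. Under control siRNA VLDLR was at 1.17, ATF5 at -1.13 and EIF2AK4, the kinase GCN2 that senses uncharged tRNA, at 0.83. Under CDC73 siRNA NUPR1 was detected in confluent cells only, at 177 against 86.3, DDIT3 was at 1.49 and the tRNA exporter XPOT was at least 1.12-fold lower. The list medians were 0.15 with control and -0.11 with CDC73 siRNA.

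Genes of amino acid sensing upstream of mTORC1 had no common direction. Of 18 measured genes 9 were higher with CDC73 siRNA in sparse and 8 in confluent cells (medians 0.01 and -0.11), and 1 passed 2-fold in any of the 4 comparisons. That was SESN1, a p53-induced inhibitor of the pathway, at 1.08 with density under control siRNA, where 5.54% of all genes passed 2-fold in either direction, with intensities of 868 and 1112 in sparse and 2033 and 805 in confluent cells. Other leading values were 0.81 for the GTPase RRAGB and -0.80 for LAMTOR4, a subunit of its lysosomal anchor, with density under control siRNA. With CDC73 siRNA in confluent cells SESN1 was at -0.85, LAMTOR2 at 0.73 and LAMTOR4 at 0.70, and RRAGD at -0.62 and FNIP1 at -0.57 with CDC73 siRNA in sparse cells.

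Among amino acid transporters of other families, more were lower than higher in confluent cells. Of 29 listed, 12 were measured. Of these, 9 were lower in confluent cells with control siRNA (median -0.30) and 9 with CDC73 siRNA (median -0.46). Of all measured genes 4917 of 10244 and 5445 of 10509 were lower. SLC6A9, a glycine transporter, was higher by 0.52 with density under control siRNA, and the mitochondrial carrier SLC25A44 by 0.63 with CDC73 siRNA in sparse cells. MFSD12, which carries cysteine into lysosomes and melanosomes, was at -1.11 and -1.36, and SLC6A15, a neuronal carrier of branched-chain amino acids and proline, at -0.73 and -0.997. CTNS, the lysosomal cystine exporter, was at -0.99 and the mitochondrial glutamate carrier SLC25A22 at -0.97 with density under CDC73 siRNA. With CDC73 siRNA in confluent cells 8 of 12 were lower (median -0.47), among them SLC15A4, a lysosomal carrier of histidine and peptides, at -1.27.

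**Figure D4:**
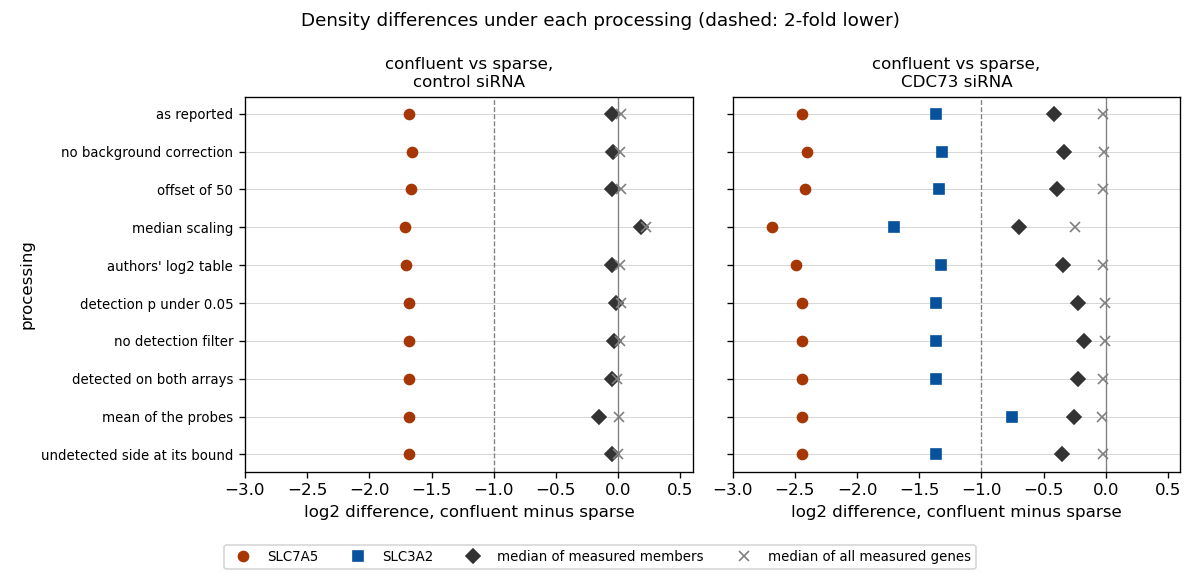
Log2 difference between confluent and sparse cells (horizontal axis) under the reported and 9 alternative ways of processing (rows), with control siRNA (left) and CDC73 siRNA (right), for genes past 2-fold and the medians. SLC7A5 stays past 2-fold lower in every row, from -1.71 to -1.66 with control siRNA and from -2.69 to -2.40 with CDC73 siRNA, and SLC3A2 on the right leaves the 2-fold range with the mean of its probes.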

How the data were processed

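Biotin-labelled cRNA made from total RNA was hybridised to bead arrays, per the labels' protocols. The authors deposited 2 tables of 49576 probes, 48803 of them with values, namely a table of probe intensity named non-normalized, per the file headers, and a table of log2 values with a median of 6.42 on each array. The software behind both is not given in the sources used here. The log2 table correlated with log2 intensity at 0.998 to 1.000, which settles its scale and direction.

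Intensity was background corrected with limma 3.58.1 in R 4.3.3 (normexp, with 453 olfactory receptor probes as negative controls and an offset of 16), then quantile normalized and log2 transformed. The steps were tested on simulated data. Gene symbols came from the platform annotation, updated through RefSeq. A comparison measured the genes that 1 or both of its arrays detected. Where 1 side was undetected, the bound was taken against that array's detection limit or the dim signal, whichever was higher. Files held no detection p-values, so the panel replaced them. The number of arrays limits the precision, and the labels do not say whether dishes came from separate transfections. Members and lists were chosen with earlier results of these data known. All members were named, with values for the detected ones, and of the other lists up to 4 genes with the largest differences in a comparison. ASNS and ATF4 were added after their values were seen.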

Additional observations from a re-analysis of the deposited data

Results flagged for a closer look

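The median siRNA difference of the measured transporters was 0.05 in sparse cells (21 genes) and -0.26 in confluent cells (18 genes). The sets differ and rest on single arrays, so the gap of -0.31 between these medians does not describe the same genes. Over the 16 genes detected on every array, the difference of the siRNA differences had a median of -0.13 (-0.04 for all genes). Without SLC7A5 and SLC3A2 it was -0.02. Relative to all genes the sparse median was 0.01, or -0.02 with median scaling, so its sign depended on the scaling. The gap was not tested, and all genes had medians of 0.04 and 0.00.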

How the results depend on the processing

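The 9 alternatives kept SLC7A5 past 2-fold lower with density under both siRNAs. In confluent cells the count of transporters 2-fold lower with CDC73 siRNA was 1 as reported and 5 with median scaling (SLC43A2, SLC3A2, SLC38A10, SLC7A5 and SLC38A1), where the median was -0.68 and that of all genes -0.40. Relative to all genes under that scaling only SLC43A2 (-1.19) stayed past 2-fold. SLC3A2 was then at -0.95, SLC38A10 at -0.75, SLC7A5 at -0.64 and SLC38A1 at -0.64. The share of all genes past 2-fold with median scaling is not given here. This count was 0 without background correction, with an offset of 50, in the authors' log2 table, over genes detected on both arrays and with undetected values at their bound. In sparse cells the count 2-fold higher was 1 as reported and 0 under those same 5 alternatives. The count 2-fold lower with density under CDC73 siRNA was 2 as reported, 4 with median scaling (SLC1A5 and SLC1A3 in addition) and 1 with the mean of the probes. Relative to all genes under median scaling, SLC1A5 was at -0.88 and SLC1A3 at -0.82, short of 2-fold. The median difference of the siRNA differences was -0.63 with median scaling, where that of all genes was -0.47. Why median scaling moved these values was not tested. No paired analysis was possible because each group has 1 array and all share the single replicate number 1. Precision is limited for genes near the detection limit, where a difference with 1 side undetected is better read as a bound.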
